A study of Caenorhabditis elegans with 6 samples.

Results

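The 10 genes described here, from their read counts in 6 RNA-seq libraries of sorted Caenorhabditis elegans cells, are T21B6.3, B0310.1, F35A5.1, T23E7.2, F35B3.7, F20D6.10, W06A7.2, C03H5.5, F54B11.9 and tmc-2. They were picked by name, out of 46932 genes in the count table. The reason was that their counts were taken to rise most in the csr-1a mutant libraries against wild type. They were also taken to lack a muscle annotation, which was checked here only against a hand-written list of muscle genes. All 10 were found by their WormBase identifier. The rise between the groups is therefore a property of the choice, and it is given below as a description without a test. The muscle myosin gene unc-54 is set beside them in every library.

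The libraries came from young adult males whose parents went through heat stress as late L4 larvae. Each holds the RNA of 5000 cells, sorted by fluorescence and named by the labels as cells of the rectal gland and rectal valve. The wild-type group (3 libraries) carried gfp::sl2::2xflag::aid::csr-1a, a tagged allele of the Argonaute gene csr-1, and the mutant group (3 libraries) carried gfp::sl2::2xflag::aid::csr-1a_delta. Both groups also carried him-8, which raises the share of males, and extrachromosomal arrays with the red protein wrmScarlet under pnc-1p or pcs-1p, 2 promoters that marked the cells for sorting. The study asks how the csr-1a mutation alters the male tail. Biological replicates are named as such in the labels, with no word on separate cultures, so that p-values measure the spread between these libraries, which may be technical.

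All but tmc-2 have only a systematic name, made of the clone that was sequenced and the place of the gene on it, and the sources used here give them no function. The gene tmc-2 encodes a transmembrane channel-like (TMC) protein. TMC proteins are membrane proteins best known from mammals, where they form part of the channel that turns sound into current in the hair cells of the inner ear. In C. elegans tmc-1 and tmc-2 are known to set the excitability of cells of the egg-laying circuit, which includes vulval muscles, so a role in muscle cells is on record for tmc-2. The comparison gene unc-54 encodes the main myosin heavy chain of body wall muscle, the motor protein of the thick filaments.

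Total counts ran from 17748698 to 47890863 per library, and ribosomal RNA took 74.4% to 78.4% of them. The counts left for other genes numbered 4542195 to 11541671. The fewest genes were detected in wild-type replicate 3 (14012) and mutant replicate 2 (12757), against 18071 to 19083 in the other 4 libraries. The targeted gene csr-1 stood at 185, 209 and 266 CPM in wild type. In the mutant libraries it stood at 185, 157 and 153 CPM (log2 fold change -0.42 ± 0.17 SE, edgeR adjusted p = 0.213), which checks nothing, since the counts do not separate the a isoform. CPM values are relative to all counts of the library, ribosomal RNA included, after trimmed-mean (TMM) scaling, and libraries are given below in the order of replicates 1, 2 and 3.

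Markers of cell types were set beside the sort label. Of 50 body wall muscle genes 48 were tested, of which 39 were higher and 0 lower in the mutant, with a median log2 fold change of 3.47 against 0.01 over all 11968 genes tested. Over all genes tested 4.04% were called higher (edgeR's quasi-likelihood test, Benjamini-Hochberg adjusted p under 0.05). The summed muscle list took 0.670%, 0.601% and 0.628% of all counts but ribosomal RNA in wild type and 11%, 5.17% and 5.59% in the mutant. Of that list unc-60 was at 0 in all libraries and unc-98 at 0 in the mutant, while the myosin genes unc-54 and myo-3 were counted in every library. Of 12 genes on a hand-written list for rectal cells, 8 were tested and 2 were higher. Whether these genes mark the gland and valve cells named by the label was not checked. The list took 0.0232% to 0.0313% of the counts in wild type and 0.0399% to 0.0496% in the mutant. The 2 higher genes, named after their values were seen, were pnc-1 (log2 fold change 1.68 ± 0.30 SE) and pcs-1 (1.19 ± 0.27). Their promoters marked the cells for sorting, and no other tested rectal gene was called. Of 8 coelomocyte genes, which mark scavenger cells of the body cavity, 7 were lower and 0 higher, at 1.64% to 1.68% in wild type and 0.754% to 1.14% in the mutant. Of 6 tested genes of hypodermis and seam 1 was higher, and 1 of 14 neuron genes was lower. No call was made by edgeR among 9 tested genes of pharyngeal muscle, 9 of intestine, 11 of germline and 11 of sperm, whose median log2 fold changes were 1.68, 0, 0.29 and -0.39. In bulk RNA, fewer cells of a type and less RNA per cell cannot be told apart.

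Of the 10 genes, 7 lie on the X chromosome, 2 on chromosome V and 1 on chromosome II. All are protein-coding. Coordinates are those of the WBcel235 annotation, since no build is named for the authors' counting. T21B6.3 (WBGene00011880) spans X:10945160-10948952 on the minus strand and encodes a protein of 821 residues. F35A5.1 (WBGene00018024), at X:3807466-3816429 on the plus strand, has the longest product of the group, 2311 residues from 7 exons. T23E7.2 (WBGene00020732) spans X:17671027-17680828 on the plus strand and has 18 annotated transcripts, with a longest product of 988 residues, so that its count pools many isoforms. Of the 10 genes, 6 have 1 annotated transcript.

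B0310.1 (WBGene00015137) lies near the left end of the X chromosome at X:493228-497510, plus strand, and its longest product has 292 residues. F35B3.7 (WBGene00018033), at X:17035194-17043078 on the minus strand, encodes 578 residues. F54B11.9 (WBGene00010032), at X:13605567-13608528 on the plus strand, encodes 217 residues. The longest product of tmc-2 (WBGene00015177), at X:9303722-9310443 on the plus strand, has 1238 residues from up to 26 exons. Among the autosomal genes, F20D6.10 (WBGene00017639) lies at V:8192060-8195939 on the minus strand with 486 residues, W06A7.2 (WBGene00012291) at V:14821853-14824524 on the plus strand with 176 residues, and C03H5.5 (WBGene00015407) at II:382309-385358 on the minus strand with 552 residues. Nothing in size, strand or exon number was common to the group.

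The share of X-linked genes was 14.4% among 11427 protein-coding genes tested and 30.8% among the 474 of them called higher. It was 50.9% among the 57 called higher by at least 16-fold, which include the members, and 27.1% among the 48 tested muscle list genes. The 70.0% of the 10 genes is read beside these shares as a description, since the genes were taken from the top of the rises.

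Together the 10 genes took 0.0139%, 0.0100% and 0.0110% of all counts but ribosomal RNA in wild type and 0.607%, 0.263% and 0.295% in the mutant. The bulk of these reads fell on 3 genes. T21B6.3 held 46.2%, T23E7.2 26% and F35A5.1 18.9% of all counts of the 10 genes. T21B6.3 stood at 12.7, 7.86 and 13.1 CPM in wild type and at 692, 270.1 and 277 CPM in the mutant. The lowest mutant library was 20.6 times the highest wild-type library, the widest gap in the group. Its log2 fold change was 5.20 ± 0.40 (SE), from 11.2 ± 2.92 to 413 ± 242 CPM (SD, n = 3). T23E7.2 stood at 10.7, 8.01 and 8.79 CPM in wild type and at 378, 151 and 176 CPM in the mutant, a log2 fold change of 4.68 ± 0.35. F35A5.1 stood at 7.41, 4.75 and 5.66 CPM in wild type and at 279.6, 100.8 and 130.3 CPM in the mutant, a log2 fold change of 4.84 ± 0.38. In each of these genes mutant replicate 1 was the highest of all libraries, and the groups did not overlap.

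B0310.1, tmc-2 and F35B3.7 formed a middle tier, near 1 CPM and below in wild type. B0310.1 was counted at 0.782, 0.561 and 0.413 CPM in wild type and at 33.1, 16.5 and 13.6 CPM in the mutant, a log2 fold change of 5.13 ± 0.44 on 37 wild-type counts in all. The channel gene tmc-2 was counted at 0.864, 0.918 and 0.236 CPM in wild type and at 28 CPM, 11.7 CPM and 14 CPM in the mutant, a log2 fold change of 4.70 ± 0.50. Its lowest wild-type library, replicate 3, rests on 4 counts. F35B3.7 was counted at 1.19, 0.918 and 0.649 CPM in wild type and at 21.8, 14.5 and 14.4 CPM in the mutant. Its rise was the smallest of the 10, with a log2 fold change of 4.17 ± 0.34, and its mutant libraries were the closest together, with a coefficient of variation of 25.1%.

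The other 4 members had fewer than 20 counts over the 3 wild-type libraries together. F20D6.10 had 16, 3 and 0 counts in wild type and stood at 12.3, 9.02 and 5.27 CPM in the mutant, on 932 counts over the 3 mutant libraries. W06A7.2 had 7, 5 and 2 counts in wild type and 468, 176 and 80 in the mutant. For both genes every mutant library lay above every wild-type library in CPM, by at least 8.01 times for F20D6.10 and 12.3 times for W06A7.2. C03H5.5 had 8, 4 and 0 counts in wild type and 425, 50 and 136 in the mutant, and it was the only member with mutant replicate 2 far below the other mutant libraries, at 1.98 against 8.92 and 6.03 CPM. F54B11.9 had 4, 0 and 7 counts in wild type and 312, 124 and 80 in the mutant. The log2 fold changes of the 4 genes were 4.90 ± 0.75, 4.88 ± 0.57, 4.87 ± 0.83 and 4.72 ± 0.79, in this order, with the widest standard errors of the group. The wild-type sums of 19, 14, 12 and 11 counts have exact 95% Poisson intervals of 11.4 to 29.7, 7.65 to 23.5, 6.2 to 21 and 5.49 to 19.7 counts, which cover counting error only.

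**Figure D1:**
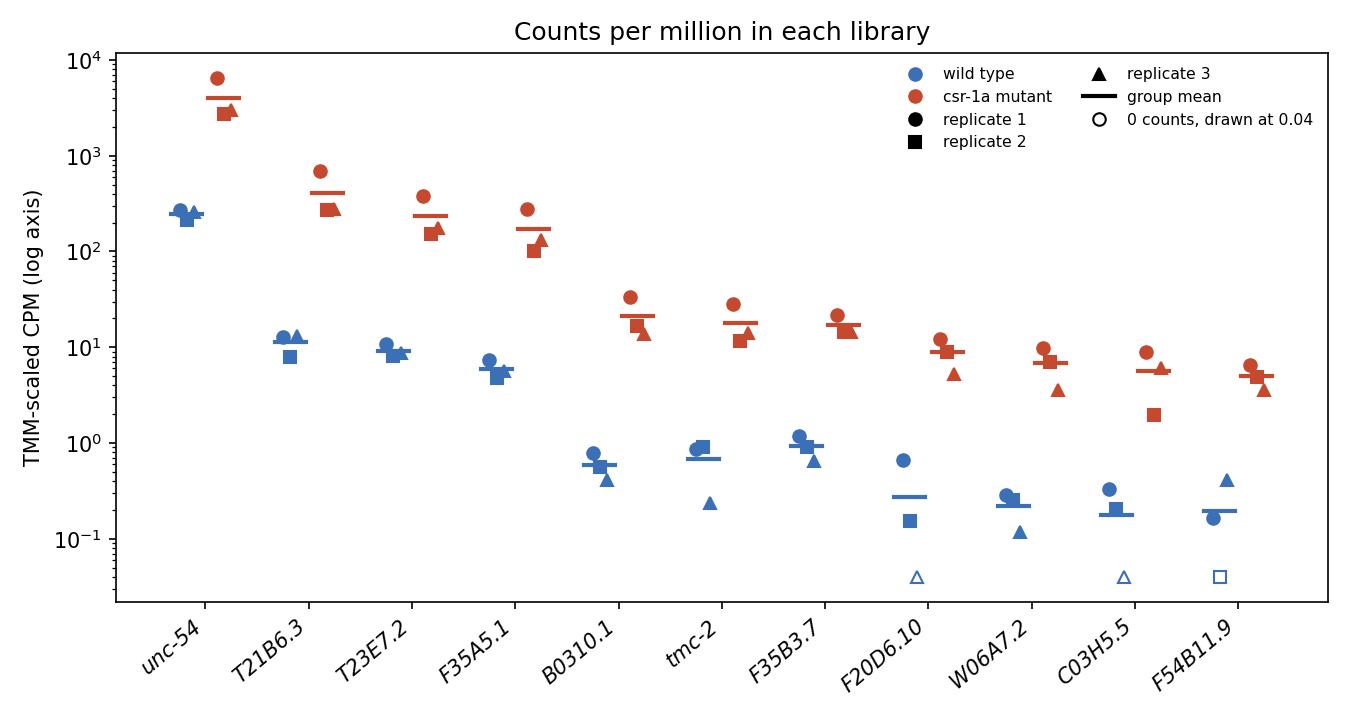
CPM (log axis) of unc-54 and the 10 genes in each library, with wild type in blue, mutant in red, a marker shape per replicate and a bar at each group mean. All mutant points of a gene lie above all its wild-type points, and open symbols mark the 3 wild-type libraries in which a gene had 0 counts, which are drawn at a fixed height.

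All 10 members passed the filter on low counts, and all 10 were called higher with groups that did not overlap, where 4.04% of the tested genes were called higher and 12.6% lay higher without overlap. Nothing is read from these counts, since the same contrast chose the members. Their median log2 fold change was 4.85, and 22 of 11968 tested genes reached that value. Outside the muscle list, 380 genes were called higher without overlap and reached a mutant mean of 5 CPM. Ranked among these by log2 fold change, members held the first 8 places, and F35B3.7 held the 13th. F54B11.9 is not in the ranking because its mutant mean was 4.9986 CPM. The limit of 5 CPM also kept out genes with larger rises than any member. Among these were lge-1 (7.24 ± 0.96, mutant mean 3.13 CPM) and fkh-2 (6.86 ± 1.24, 2.39 CPM), both off the muscle list and near 0 in wild type. The ranking reuses the values that chose the members, so their places in it are a description. The 4 genes between the 8th place and F35B3.7, none of them members, were chts-1 (4.47 ± 0.41), Y53G8B.2 (4.28 ± 0.47), C08G9.2 (4.23 ± 0.54) and T02D1.8 (4.20 ± 0.64). Just below F35B3.7 followed WBGene00004907 (4.16 ± 0.61), cfi-1 (4.15 ± 0.60) and zig-12 (4.14 ± 0.49). The choice of F35B3.7 thus did not follow this order.

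To compare levels between genes, CPM was divided by the length of each gene's exons in kilobases. On this scale the mutant means fell in the order T21B6.3 (146 ± 85.6, SD, n = 3), T23E7.2 (57.3 ± 30.4), F35A5.1 (23.8 ± 13.4), B0310.1 (11.5 ± 5.77), W06A7.2 (8.70 ± 4.03), F35B3.7 (8.39 ± 2.10), F20D6.10 (4.93 ± 1.95), F54B11.9 (4.89 ± 1.47), tmc-2 (4.51 ± 2.21) and C03H5.5 (3.28 ± 2.03). The ranges of neighbours in this order overlapped except between T21B6.3 and T23E7.2 and between F35B3.7 and F20D6.10. Within single mutant libraries the order was the same in 3 of 3 for 6 of the 9 neighbouring pairs. It was not for W06A7.2 and F35B3.7, for F20D6.10 and F54B11.9, or for F54B11.9 and tmc-2. The level of unc-54 per kilobase was 654 ± 341 in the mutant. Among 11427 protein-coding genes, T21B6.3 moved from rank 4177 in wild type to rank 131 in the mutant, and unc-54 from rank 395 to rank 8. C03H5.5, the lowest member, stood at rank 11349 in wild type and 5110 in the mutant.

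The pattern over replicates was then set beside that of unc-54. In wild type that gene stood at 269, 216 and 262 CPM. Its mutant libraries reached 6498, 2700 and 2977 CPM (log2 fold change 4.03 ± 0.32 SE), so mutant replicate 1 was at 1.60 times the mutant mean and replicates 2 and 3 at 0.665 and 0.734 times. Mutant replicate 1 was also the highest mutant library for 10 of 10 members, at 1.29 (F35B3.7) to 1.68 (T21B6.3) times their own means. The muscle gene myo-3 was at 1.64 times its mean there. How often this library was highest over all tested genes was not counted, and the mutant counts also chose the members. The lowest mutant library was replicate 2 for 5 members and replicate 3 for the other 5. T21B6.3, T23E7.2 and tmc-2 lay close to unc-54, with 0.654, 0.641 and 0.655 times their mean in replicate 2 and 0.670, 0.749 and 0.783 times in replicate 3. W06A7.2 and F20D6.10 instead had 1.03 and 1.02 times their mean in replicate 2 and 0.523 and 0.595 times in replicate 3. C03H5.5 went the other way, with 0.351 times in replicate 2 and 1.07 times in replicate 3. Mutant replicate 1 was also the library with the highest muscle list share, 11%, and the deepest library, and the part of muscle RNA in the members' counts was not tested.

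**Figure D2:**
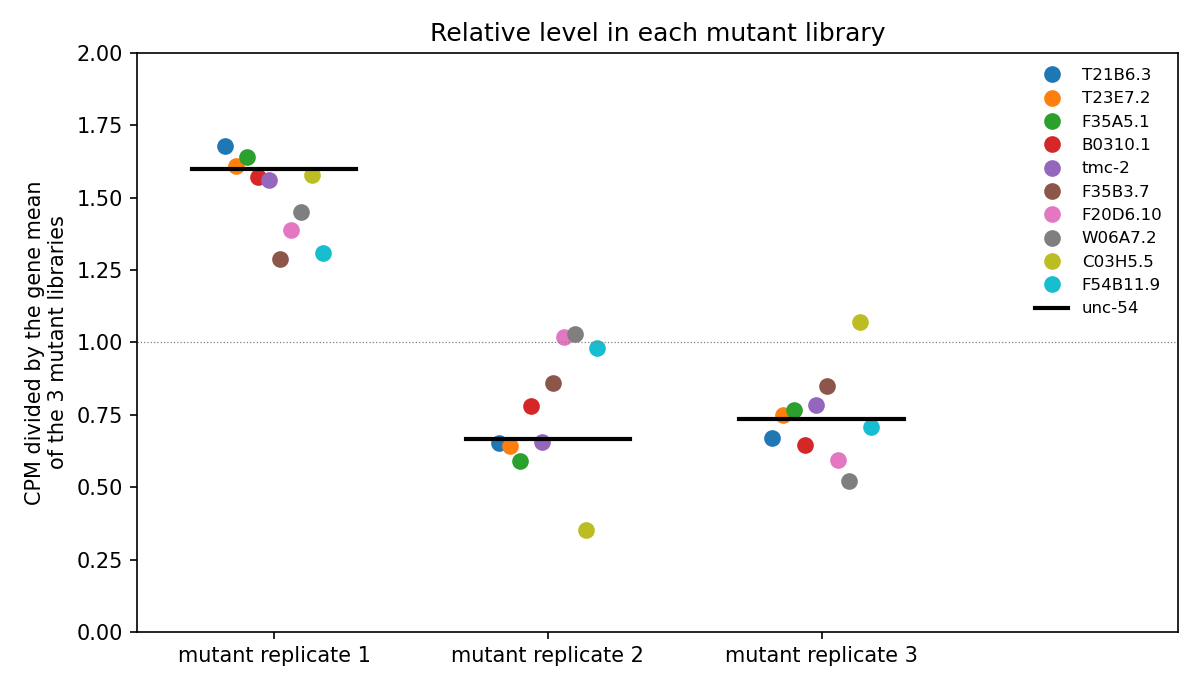
CPM of each of the 10 genes in the 3 mutant libraries, divided by the gene's mean over those libraries, with black bars for unc-54. Every gene is above its mean in mutant replicate 1, and the genes spread more widely in replicates 2 and 3, from 0.351 (C03H5.5) to 1.07 times the mean.

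A ratio of counts within a library does not depend on how libraries are scaled. For each 100 counts of unc-54, T21B6.3 had 4.73, 3.64 and 5.01 counts in wild type and 9.3 to 10.7 in the mutant. T23E7.2 had 3.96, 3.72 and 3.36 in wild type and 5.82, 5.58 and 5.91 in the mutant, the steadiest ratio to unc-54 of the group among mutant libraries. F35A5.1 had 2.76, 2.2 and 2.17 in wild type and 4.3, 3.73 and 4.38 in the mutant. For these 3 genes the ratio was higher in every mutant library than in any wild-type library. The same held for B0310.1, W06A7.2 and tmc-2, but not for F35B3.7, F20D6.10, C03H5.5 or F54B11.9. W06A7.2 met it only by 0.119 in mutant replicate 3 against 0.118 in wild-type replicate 2, which rests on 5 counts. With tmc-2 the margin was 0.431 in mutant replicate 1 against 0.426 in wild-type replicate 2, on 18 counts. Both margins lie within counting error. The count of such members depends on the reference: it was 6 with unc-54, 3 with myo-3 (T21B6.3, B0310.1 and F35A5.1) and 9 with the summed muscle list (all but C03H5.5). How many of all tested genes met the same condition was not counted, so nothing is read from these counts. F35B3.7 had 0.444, 0.426 and 0.248 counts in wild type and 0.335, 0.538 and 0.482 in the mutant for each 100 counts of unc-54, so that its groups overlapped on this scale. The median difference in log2 ratio over the members was 0.995. It was 0.61 without wild-type replicate 3 and 0.49 with myo-3 in place of unc-54. With myo-3 the difference was below 0 for F35B3.7 (-0.25). Members were chosen for large rises, so nothing is read from the direction of this difference.

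The ratios among the mutant libraries alone leave out the wild-type counts, but the mutant counts in them also chose the genes. They are given as a description. As a share of the gene's counts plus unc-54's, T23E7.2 made up 5.50%, 5.28% and 5.58% in mutant replicates 1, 2 and 3, and its exact 95% binomial intervals (Clopper-Pearson) overlapped in all pairs. The same held for tmc-2, at 0.430%, 0.433% and 0.469%. For the other 8 members at least 1 pair of mutant libraries had intervals that did not overlap. This too depends on the reference, since with myo-3 the mutant intervals overlapped in all pairs for 0 members and with the summed muscle list for 1, tmc-2. The departure was small for T21B6.3, at 9.62% (9.53% to 9.72%), 9.09% (8.89% to 9.30%) and 8.51% (8.31% to 8.71%). It was largest for C03H5.5, at 0.137% (0.124% to 0.151%), 0.0732% (0.0543% to 0.0965%) and 0.202% (0.169% to 0.239%), a 2.76-fold range. In wild type the intervals of 7 members overlapped in all pairs, the exceptions being T21B6.3, F20D6.10 and tmc-2. Where a wild-type count was 0, the limit of 3 counts allows a share of up to 0.0677% for F20D6.10 and C03H5.5 in replicate 3 and up to 0.0710% for F54B11.9 in replicate 2. Reads without molecular identifiers are not independent molecules, so these intervals and limits cover counting error only.

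**Figure D3:**
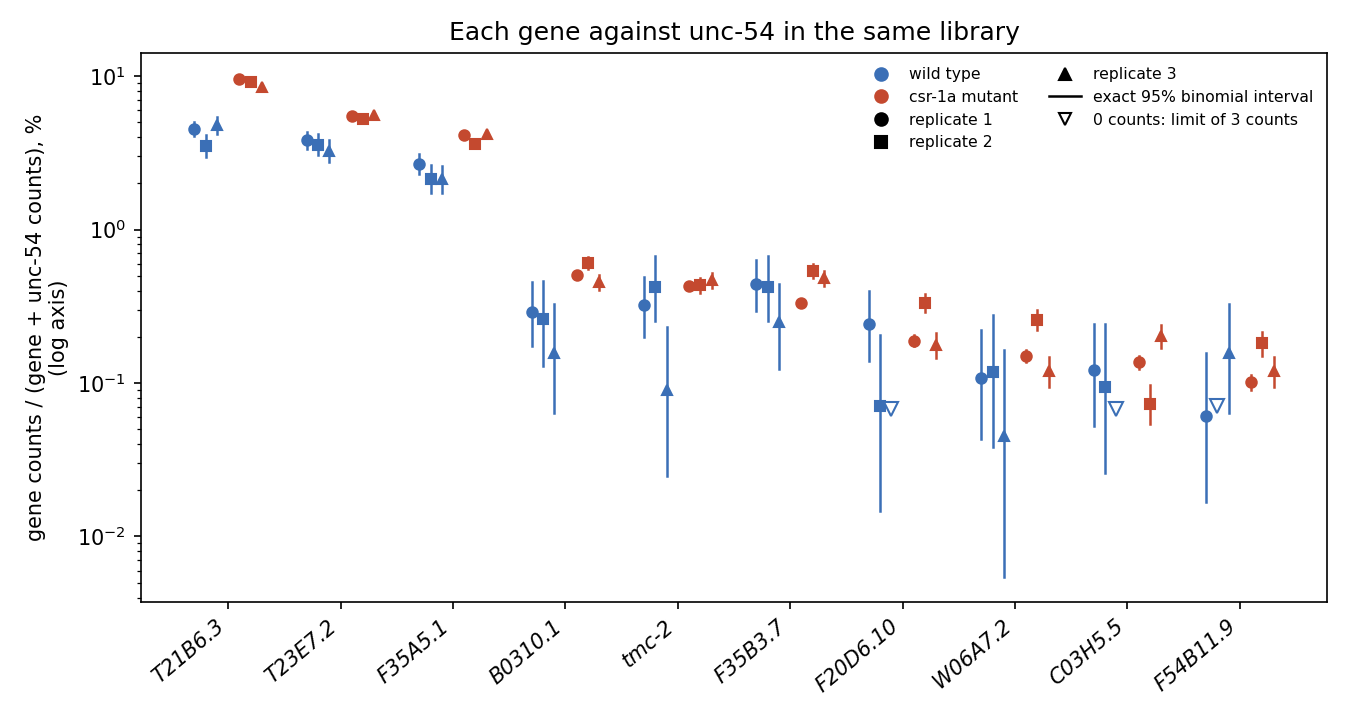
Counts of each gene as a percentage of its own plus the unc-54 counts of the same library (log axis), with exact 95% binomial intervals, wild type in blue and mutant in red. The mutant intervals of T23E7.2 and of tmc-2 overlap in all pairs, the mutant points of C03H5.5 spread 2.76-fold, and open triangles give the limit where a wild-type library had 0 counts.

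Over the 3 mutant libraries, the SD of the log2 ratio to unc-54 was 0.04 to 0.73 among the members, with a median of 0.28. The median was 0.18 for 47 tested muscle list genes other than unc-54 and 0.74 for the 6369 tested genes with a mean of at least 100 counts in the mutant. These are descriptions of 3 libraries. A gene level over the mutant libraries takes on the spread of unc-54 itself (6498, 2700 and 2977 CPM) in this ratio. The mutant counts also chose the members, so nothing is read from the difference between these medians.

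Profiles were also compared over all 6 libraries, as the root mean square difference in log2 CPM after centring each gene on its own mean, with a prior count of 2. The 5 genes outside the group nearest to T21B6.3 were lge-1 (0.32), myo-3 (0.36), mup-2 (0.36), fkh-2 (0.44) and tni-1 (0.49), among 11958 genes compared. Of these, myo-3 encodes another myosin heavy chain of body wall muscle, mup-2 a troponin T and tni-1 a troponin I, which with calcium switch contraction on, and fkh-2 a forkhead transcription factor. lge-1 and fkh-2 were near 0 in wild type (each at 0.0411 CPM in replicate 1 and at 0 in replicates 2 and 3), and their values in this measure depend on the prior count. The 5 genes nearest to the median profile of the 10 members were mup-2 (0.21), myo-3 (0.22), csq-1 (0.26), lge-1 (0.27) and mlc-1 (0.28). csq-1 encodes calsequestrin, the calcium store protein of the sarcoplasmic reticulum, and mlc-1 a myosin light chain with a near-identical copy, mlc-2, which can share reads. In mup-2 the libraries stood at 16.2, 9.80 and 12.5 CPM in wild type and at 480.2, 194 and 207 CPM in the mutant. All 6 libraries entered this measure, so the rise itself sets much of it, and genes with a similar rise come first.

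Members differed in how near they lay to unc-54 on the same measure. T23E7.2 (0.33), F35B3.7 (0.34) and F35A5.1 (0.42) were the nearest, and F20D6.10 (1.16), C03H5.5 (0.92) and F54B11.9 (0.81) the farthest. Of the 20 genes nearest to each member, 11 were on the muscle list for T21B6.3, F35A5.1 and T23E7.2, 8 for F35B3.7, 7 for B0310.1 and F54B11.9, 4 for W06A7.2, 2 for tmc-2 and F20D6.10, and 1 for C03H5.5. The 3 members farthest from unc-54, F20D6.10, C03H5.5 and F54B11.9, are among the 4 under 20 wild-type counts. The other of these 4, W06A7.2, was at 0.53 from unc-54, nearer than B0310.1 (0.57), T21B6.3 (0.60) and tmc-2 (0.70). Profiles within the group were compared in the same way, with differences of 0.78 to 1.51 among the 4 genes under 20 wild-type counts, against 0.11 to 0.75 among the other 6. The wild-type values of these 4 genes rest on 0 to 16 counts per library, and the part of counting error in their differences was not tested.

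The pathway of tmc-2 could be followed further. In worm sensory neurons the TMC channel is known to work with calm-1, a calcium-binding protein, unc-44, an ankyrin that ties membranes to the cytoskeleton, and arrd-6, an arrestin-like protein. Besides tmc-2, the list tested held these partners and tmc-1, 4 genes in all. Of the 4, 1 rose and 0 fell, against 4.04% called higher and 1.55% called lower over all genes tested. Another gene of the list, tmie-1, matched no gene name and was not tested. The gene that rose was the sister channel tmc-1 (X:1162207-1177174, plus strand), which stood at 3.83, 2.60 and 7.32 CPM in wild type and at 50 CPM, 32.5 CPM and 22.2 CPM in the mutant. Its log2 fold change was 2.94 ± 0.40 (edgeR adjusted p = 0.00125), and the groups did not overlap. Per kilobase of exon tmc-1 was above tmc-2 in both groups, at 1.02 against 0.169 CPM in wild type and at 7.77 against 4.51 CPM in the mutant. The channel partners did not pass the test, with log2 fold changes of 0.36 ± 0.50 for calm-1, 0.41 ± 0.16 for unc-44 and -0.20 ± 0.49 for arrd-6 (edgeR adjusted p = 0.823, 0.209 and 0.91). The muscle list share rose from 0.601% to 0.670% in wild type to 5.17% to 11% in the mutant beside these values, and its part in them was not tested.

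The nearest protein-coding gene on each side of each member was examined next, since these 20 genes were chosen by position and not by their counts. Of them 11 had enough counts to be tested, and 0 were called in either direction by edgeR, against 5.59% over all genes tested; 3 stood at an unadjusted p under 0.05. The median log2 fold change of the 11 was 0.29, with a range of -0.56 to 1.62, against 0.01 over all genes. The 3 genes, named after their values were seen, were B0310.2 beside B0310.1 (1.62 ± 0.50, adjusted p = 0.10), F20D6.11 beside F20D6.10 (0.97 ± 0.32, adjusted p = 0.122) and ptrn-1 beside F35B3.7 (-0.56 ± 0.20, adjusted p = 0.158). B0310.2 was at 1.23, 1.53 and 1.48 CPM in wild type and at 6.40, 1.90 and 4.70 CPM in the mutant, and the value in mutant replicate 2 lay close to wild type. Without mutant replicate 2 it was called higher (log2 fold change 2.04, edgeR adjusted p = 0.0168), as it was by DESeq2 (1.63, adjusted p = 0.0437). The other 9 flanking genes had too few counts for the test. Beside T21B6.3, pho-7 had 10 counts in wild type and 271 in the mutant. F20D6.1 beside F20D6.10 had 10 and 150, T23E7.6 beside T23E7.2 had 5 and 43, and egl-17 beside B0310.1 had 5 and 26. Mutant counts were lower for C03H5.7 beside C03H5.5 (39 and 13) and F54B11.8 beside F54B11.9 (18 and 8). K09C8.7, B0416.2 and H29C22.1 had 14 counts or fewer in each group. pho-7 was called higher without the low-count filter (log2 fold change 3.85, edgeR adjusted p = 0.00565) and without mutant replicate 2 (4.39, adjusted p = 0.0217). Among the tested genes, W06A7.4, which overlaps W06A7.2 and is named after its values were seen, stood at 1.56 ± 0.90 (edgeR adjusted p = 0.458). fkh-9, which lies 417 bp from F35A5.1, was at 13 to 20 CPM in wild type and at 13 to 21 CPM in the mutant. The groups overlapped there, and the rise of F35A5.1 was not matched by it (0.17 ± 0.25).

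**Figure D4:**
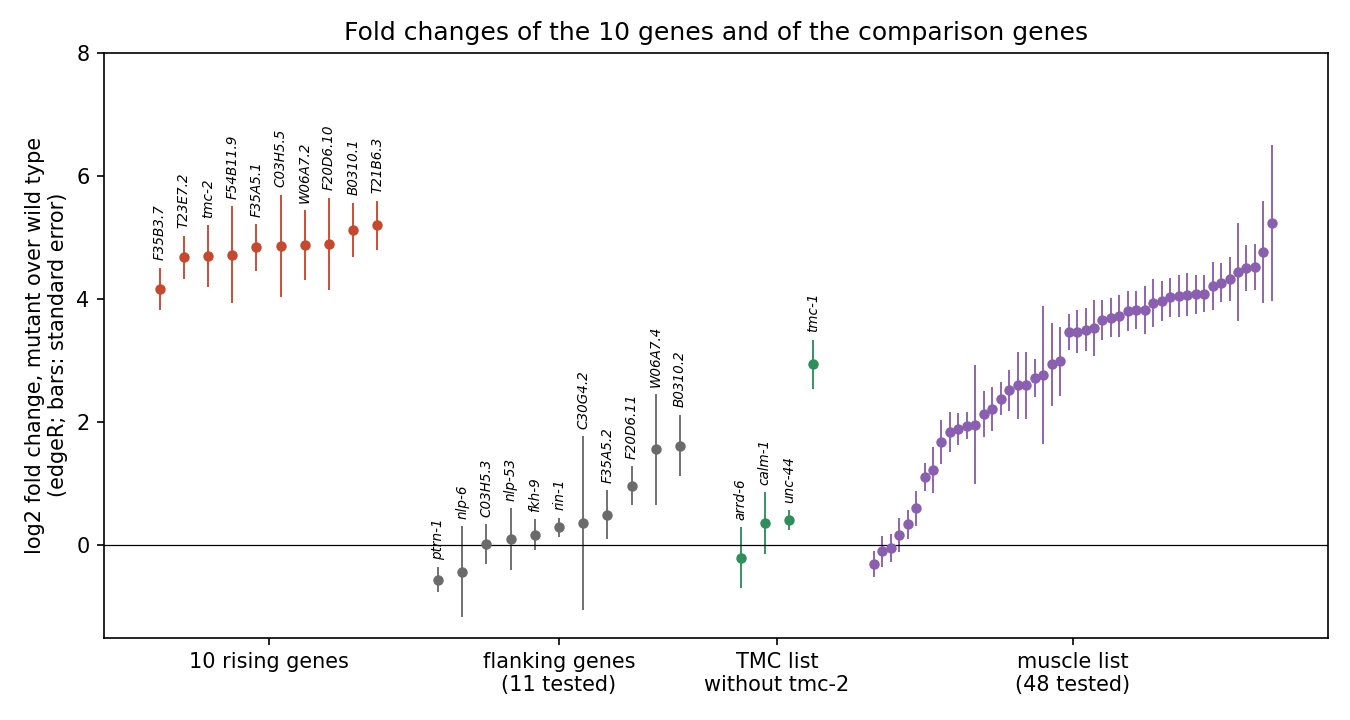
Log2 fold change of mutant over wild type with its standard error (edgeR) for the 10 genes, the 11 tested flanking genes, the TMC list without tmc-2 and the 48 tested body wall muscle genes. The 10 genes lie between 4.17 and 5.20, where their choice put them, the flanking genes between -0.56 and 1.62, and tmc-1 at 2.94.

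Overlapping annotation touches 4 of the members. T21B6.3 shares 64 bp with the noncoding RNA T21B6.15 on the opposite strand, which had 16 counts in all 6 libraries. T23E7.2 shares 62 bp with the protein-coding gene T23E7.6 on the opposite strand, which had 48 counts. W06A7.2 shares 101 bp with the protein-coding gene W06A7.4 on the same strand, which had 230 counts in all, 197 of them in the mutant, beside 738 counts of W06A7.2 itself. The noncoding RNAs F35B3.8 and F35B3.9, which each share 139 bp with F35B3.7, had 0 counts. No source used here says whether counting used the strand, so reads in these overlaps cannot be assigned with certainty.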

How the data were processed

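The authors deposited 1 table of raw read counts per gene for 6 libraries. Tools named by the submitters' processing notes are STAR, fastp 0.20.1, DESeq2, featureCounts and Subread 2.0.0, with neither role nor order. Genome build, annotation and strand setting were not given in the sources used here. RNA was taken up in TRIzol and made into libraries with the VAHTS Universal V8 kit, per the labels' protocols.

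The test was that of edgeR 4.0.16 (R 4.3.3): filterByExpr (minimum count 10, total 15), trimmed mean of M values, glmQLFit (robust) and glmQLFTest on group, Benjamini-Hochberg adjustment over 11968 genes, threshold 0.05. The biological coefficient of variation was 0.465. Standard errors were derived from the test statistic. The procedure was also run on simulated counts with a single dispersion and with smaller changes than those of the members. That run does not bear on the members' fold changes. Symbols and coordinates (1-based) came from WBcel235 (Ensembl release 115), which held 46919 of 46932 identifiers. Libraries of a group differed beyond sampling noise (chi-square per degree of freedom at least 7.85). Near-identical copies of the members were not searched for, since no sequences were used here.

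The members, lists and tests were chosen with earlier results of these data known. Marker lists covered body wall muscle, pharyngeal muscle, neuron, intestine, hypodermis and seam, coelomocyte, rectal cells, germline, sperm and TMC partners. Of these, 2 names matched no gene. Named were the members, unc-54, csr-1, TMC genes, flanking genes that passed the test, the 5 nearest profiles and the 3 genes ranked below the lowest member; others are named as chosen after their values were seen, as the ends of a range or as overlapping genes. Alternatives were other scalings (DESeq2-type size factors, library totals), filters, DESeq2 1.42.0, limma-voom (limma 3.58.1), a replicate block, ribosomal RNA left out and libraries left out.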

Additional observations from a re-analysis of the deposited data

How the results depend on the processing

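The median log2 fold change of the members was 4.43 to 5.12 without single libraries and 4.86 to 4.95 under other scalings, filters and tools. No member changed sign in any alternative in which it was tested. F20D6.10 reached 6.74 and C03H5.5 reached 5.71 without wild-type replicate 1, and F54B11.9 reached 5.73 without wild-type replicate 3, all 3 from very few wild-type counts. All 10 members were called in each fit that tested them except limma-voom, which called 6. limma-voom did not call F20D6.10, W06A7.2, C03H5.5 and F54B11.9, and it called 351 of 11968 tested genes higher. Nothing is read from these calls, since the same contrast chose the members. The filter of at least 5 CPM in 3 libraries left 7 members. The call of tmc-1 held in 15 of 15 alternatives, and the muscle list had 32 to 42 members higher.

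The count of all called genes was 1048 without a low-count filter (727 higher, 321 lower), 1062 by DESeq2 (361 lower) and 416 to 697 without single libraries, with 39 to 151 lower. Lower genes numbered 89 with library totals alone, which gave 86.6% of calls higher against 72.3%, and 56 without wild-type replicate 3 and mutant replicate 2. Flanking genes called numbered 1 without a low-count filter, 1 by DESeq2, 0 to 2 without single libraries and 2 without wild-type replicate 3 and mutant replicate 2. The log2 ratio difference to unc-54 was 0.49 with myo-3 as reference, 1.63 with the summed muscle list, 0.56 without wild-type replicate 3 and mutant replicate 2 and 0.61 to 1.15 without single libraries. With ribosomal RNA in the denominator the members' mean share was 0.00282% in wild type and 0.0920% in the mutant, against 0.0116% and 0.388%, and the muscle list's 0.154% and 1.72%, against 0.633% and 7.24%, as the larger denominator requires. arrd-6 was at -0.59 to 0.14 without single libraries, at 0.14 without mutant replicate 1. Except where stated, the cause was not tested.

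Same-numbered libraries of the groups did not deviate together (correlations of 0.037, -0.020 and -0.068 for replicates 1, 2 and 3), so no pairing by number was seen in these counts. Whether same-numbered libraries were handled together could not be checked. With a replicate block the count of called genes was 557 (428 higher, 129 lower), the members' median 4.88, flanking genes called 0 and the muscle list 38 higher. Counts under 20 in wild type limit the fold changes of F20D6.10, W06A7.2, C03H5.5 and F54B11.9.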
